A study of Mus musculus with 3 samples.

Results

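The cells described here were ventricular macrophages of the mouse that carried UMIs of Folr2, Lyve1 or Cbr2, markers of tissue-resident cardiac macrophages. A UMI is a tag that counts 1 captured mRNA molecule, and levels are given as CPM, the UMIs of a gene in every 1000000 UMIs of a class of cells. Cells with at least 200 detected genes were kept. A cell was taken as a macrophage when C1qa, C1qb and C1qc together had at least 5 UMIs and more than 2 times the UMIs of each of an endothelial set (Pecam1, Cdh5, Kdr and Egfl7), a fibroblast set (Col1a1, Col1a2 and Pdgfra) and a mural set (Myh11, Rgs5 and Vtn). Macrophages with at least 2 UMIs of Folr2, Lyve1 and Cbr2 in all were called marker-positive, and those with 0 or 1 marker-low. This gave 466 marker-positive cells among 968 macrophages (48.1%) and 6915 cells kept (6.74%). The cells were thus chosen by the UMIs of these genes, whose values are given below as description.

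The study profiled non-cardiomyocytes (non-CMs) of wild-type male C57BL/6JJcl mice by droplet single-cell RNA sequencing (scRNA-seq). Each of 3 phases had 1 library: the healthy heart (0 weeks), the adaptive hypertrophy phase 2 weeks after transverse aortic constriction (TAC), and the heart failure phase 12 weeks after TAC. TAC narrows the aorta and overloads the left ventricle, and was performed at 8 weeks of age, while the age of the healthy mouse is not given in the sources used here. Ventricles were digested with collagenase and the cells were separated on Percoll, so every library held only the cells that came through that preparation. With 1 library per phase no difference between phases has a replicate check and none was tested, and the 95% intervals below cover counting error only.

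Resident macrophages of the heart settle there before birth or soon after and renew themselves locally, while macrophages that derive from blood monocytes arrive through the chemokine receptor CCR2 and often carry more MHC class II, the molecules that present peptides to CD4+ T cells. Folr2 encodes folate receptor beta, Lyve1 a hyaluronan receptor shared with lymphatic endothelium, Cbr2 a carbonyl reductase and C1qa a chain of the complement component C1q. Where the cells came from was not measured, so "resident" stands here for a set of marker genes and not for an origin.

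The marker-positive cells numbered 444 of 840 macrophages at 0 weeks, 10 of 89 at 2 weeks and 12 of 39 at 12 weeks. Macrophages made up 21.6% (20.3 to 22.9) of the 3892 cells kept at 0 weeks, 3.99% (3.22 to 4.89) of 2231 at 2 weeks and 4.92% (3.52 to 6.67) of 792 at 12 weeks. Among macrophages the marker-positive share was 52.9% (49.4 to 56.3), 11.2% (5.52 to 19.7) and 30.8% (17.0 to 47.6). The share was thus lower at both times after TAC, and the 2 intervals after TAC overlapped. A cell needs enough UMIs to show 2 of these markers, so the macrophages were also thinned to 1000 UMIs each, which left out 0, 15 and 8 shallower cells. The thinned shares were 33.8% (30.6 to 37.1) at 0 weeks, 5.41% (1.49 to 13.3) at 2 weeks and 32.3% (16.7 to 51.4) at 12 weeks, against 52.9%, 12.2% and 35.5% for the same cells before thinning. At equal depth the 2-week share stayed below the healthy one and the 12-week share lay within its interval. A share of cells does not tell a smaller number of these cells from a larger number of the others.

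**Figure D1:**
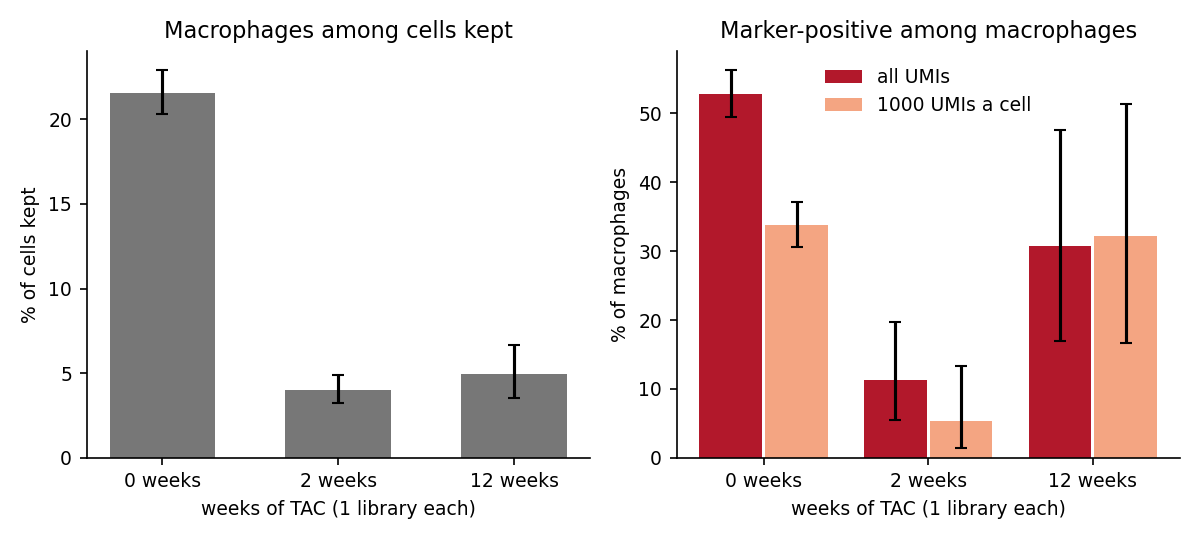
The left bars give macrophages as a percentage of all cells kept in each library and the right bars give marker-positive cells as a percentage of macrophages, with all UMIs and at 1000 UMIs a cell, and error bars are exact binomial 95% intervals. At equal depth 33.8%, 5.41% and 32.3% of macrophages were marker-positive at 0, 2 and 12 weeks.

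The depth of the marker-positive cells was 2947.5, 3015 and 1569 UMIs per cell (median) at 0, 2 and 12 weeks, and 2456, 1812 and 1720 in marker-low cells. Their UMIs summed to 1371693, 32337 and 31120. The deepest cell held 0.594% of that sum at 0 weeks but 23.3% at 2 weeks and 36.2% at 12 weeks. Mitochondrial genes took a median of 2.78%, 2.62% and 9.38% of their UMIs, and 13, 2 and 5 cells were above 10%, so the 12-week marker-positive cells stood apart from the marker-low ones of the same library (3.46%). Scrublet called 2 of the 444 healthy marker-positive cells as doublets and 0 of the 22 others. The libraries shared 5, 1 and 3 cell barcodes pairwise, with 0 of them among macrophages. The part of mitochondrial content and of single deep cells in the differences between phases was not tested beyond the values given beside them.

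The choosing genes had the following levels, which are a description. In the 444 healthy marker-positive cells Folr2 was seen in 82.7% of cells, Cbr2 in 89.2% and Lyve1 in 46.4%. Of these cells 37.8% held all 3 genes and 19.6% held only 1. At 2 weeks 7, 6 and 2 of the 10 cells held Folr2, Cbr2 and Lyve1. There 1 cell held all 3 and 6 cells held only 1 of the 3. At 12 weeks 12, 11 and 6 of the 12 cells held them, 5 cells held all 3 and 0 held only 1. Folr2 stood at 1172, 773 and 1864 CPM at 0, 2 and 12 weeks. Cbr2 stood at 1051, 557 and 1253 and Lyve1 at 363, 124 and 643. C1qa, 1 of the 3 genes that chose the macrophages, stood at 6068, 8411 and 7455 in marker-positive and 4410.3, 4315 and 3966 in marker-low cells. Folr2, Cbr2 and Lyve1 were lowest at 2 weeks, where 4 of 10 cells had exactly 2 marker UMIs. Just outside the threshold, 100, 6 and 8 macrophages had a sum of 1, and just inside it 56, 4 and 3 had a sum of 2. Folr2 gave a UMI in 1.88% of 797 healthy endothelial cells (ECs, median 2675 UMIs) and 1.67% of 1015 fibroblasts (FBs, median 3234 UMIs), cell types that should lack it. Cbr2 gave one in 2.51% and 1.28% of these cells and Lyve1 in 3.39% and 0.690%.

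The promoters of the 2 choosing genes found in the RefSeq table (build GRCm38.p6) are shown because their transcripts define these cells. Each run gives the 250 bases before a transcription start, and capitals mark the core PU.1 letters GAGGAA, read by the lineage factor of myeloid cells, and TGCTGA, the core letters of MAF sites, both searched on both strands in the 250 bases before and 50 after the start.
Folr2 first start (chr7:101857191-101857440, minus strand): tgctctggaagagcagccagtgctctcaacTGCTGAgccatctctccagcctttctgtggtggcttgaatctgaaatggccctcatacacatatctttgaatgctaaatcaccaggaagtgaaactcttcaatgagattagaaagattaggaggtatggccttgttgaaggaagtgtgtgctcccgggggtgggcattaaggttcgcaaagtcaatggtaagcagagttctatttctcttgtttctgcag
Folr2 second start (chr7:101845332-101845581, minus strand): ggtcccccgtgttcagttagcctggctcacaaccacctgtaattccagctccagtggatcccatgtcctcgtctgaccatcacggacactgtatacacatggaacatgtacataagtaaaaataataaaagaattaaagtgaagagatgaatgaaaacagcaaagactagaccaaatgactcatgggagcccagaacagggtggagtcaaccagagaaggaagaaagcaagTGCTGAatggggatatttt
Cbr2 (chr11:120732022-120732271, minus strand): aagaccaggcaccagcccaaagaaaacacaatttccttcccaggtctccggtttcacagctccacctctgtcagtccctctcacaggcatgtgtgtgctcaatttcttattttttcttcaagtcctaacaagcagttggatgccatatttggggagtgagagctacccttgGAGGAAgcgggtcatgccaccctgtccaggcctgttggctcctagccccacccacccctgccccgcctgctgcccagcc

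TGCTGA began 220 bases before the first Folr2 start and 19 bases before the second, and GAGGAA began 79 bases before the Cbr2 start. Of 32851 promoters in the table, 28.3% held GAGGAA and 19.5% held TGCTGA, and of the 27025 genes these belong to 31.3% and 21.7% held them at 1 start or more. Of the 28 genes of the resident macrophage list described next, 20 had a promoter in the table, of which 12 held GAGGAA and 7 held TGCTGA at 1 start or more. Both motifs are short and common, and a match is not evidence of binding.

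Beyond the choosing genes, the healthy marker-positive cells carried higher levels of most genes of the resident macrophage list. The list holds scavenger and lectin receptors, secreted factors and transcription factors such as Maf. Of its 28 genes 25 had at least 20 UMIs over both classes, 19 were at least 2-fold higher in marker-positive cells and 0 were 2-fold lower. The median of the 25 log2 ratios was 1.42. Over all 7109 genes counted in that library 5.32% were 2-fold higher and 2.1% lower, with a median of 0.13. In all 3 libraries at once only 12 of the 28 genes could be counted, and 5 (Mrc1, F13a1, Pf4, Sepp1 and Fcgrt) were 2-fold higher in each, against 0.909% of the 660 genes counted. That is 6 genes of 660, and 3 without the deepest marker-positive cell at 2 and at 12 weeks. The lists were drawn up with earlier results of these libraries known.

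F13a1, the A chain of coagulation factor XIII (chr13:36867178-37050244, mm10), had the highest smallest ratio over the 3 libraries among the genes named as higher. Its level in marker-positive cells was 1291, 742 and 1832 CPM at 0, 2 and 12 weeks, against 203, 171 and 274 in marker-low cells. The ratio was 6.35 (5.50 to 7.36), 4.34 (2.42 to 7.72) and 6.70 (3.88 to 12.1), and each interval lay above 1, as it did without the deepest cell at 2 weeks, 5.43 (3.00 to 9.72), and at 12 weeks, 5.89 (3.21 to 11.1). A UMI of F13a1 was seen in 389 of 444 (87.6%, 84.2 to 90.5) healthy marker-positive cells and 126 of 396 (31.8%, 27.3 to 36.7) marker-low cells, against 0.878% of ECs and 1.77% of FBs. After thinning to 1000 UMIs the shares were 68.2% and 18.9%.

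Among receptors, Mrc1 (the mannose receptor, chr2:14229392-14332057) stood at 724, 618 and 1060.4 CPM in marker-positive and 315, 200.4 and 456 in marker-low cells. Fcgrt, the receptor that recycles IgG, stood at 626, 371 and 932 against 204, 94.3 and 182. Stab1, a scavenger receptor, had ratios of 1.94, 3.58 and 3.17. Each was higher in the marker-positive class of all 3 libraries, and without the deepest cell the 12-week ratios were 1.99 for Mrc1, 4.42 for Fcgrt and 4.26 for Stab1. Cd163, which takes up haemoglobin with haptoglobin, stood at 292, 186 and 418 against 65.2, 29.5 and 106, with only 6 and 13 UMIs behind the values at 2 and 12 weeks. Timd4, a receptor for phosphatidylserine on dying cells, was at 112 against 8.76 CPM in the healthy library, a ratio of 12.8 (6.58 to 28.6). It had 0 UMIs in marker-positive cells at 2 weeks and 1 at 12 weeks, and at those depths its level could not be compared with the healthy one. Vsig4 and Fcna, a complement receptor and a ficolin, had 65 and 128 UMIs in healthy marker-positive cells and 0 at 2 and 12 weeks.

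Among secreted products, Pf4 (the chemokine platelet factor 4, chr5:90772435-90773383) stood at 4806, 3247 and 6941 CPM in marker-positive and 2080.1, 814 and 2294 in marker-low cells. Sepp1, which encodes selenoprotein P (chr15:3268547-3280508), stood at 4091, 2999.7 and 5559 against 2005, 837 and 2309.6. Both were 2-fold or more higher in each library, but at 12 weeks the deepest cell held 66.7% of the Pf4 UMIs. Without it the 12-week ratios were 1.58 (1.18 to 2.11) for Pf4 and 1.74 (1.31 to 2.30) for Sepp1, so neither reached 2-fold there. Igf1, insulin-like growth factor 1, had ratios of 2.08, 3.34 and 1.30, and the 12-week value rested on 8 UMIs. Its ratio without the deepest cell was 2.07 (0.912 to 4.31) at 2 weeks and 0.510 (0.0558 to 2.25) at 12 weeks. Gas6, a ligand of the TAM receptors, had ratios of 3.06, 5.25 and 3.25, the last 2.29 (0.865 to 5.80) without the deepest cell. Ccl24, an eosinophil chemokine, stood at 613, 61.8 and 739 against 79.8, 5.90 and 45.6, with 2 UMIs at 2 weeks. At 12 weeks the deepest cell held 78.3% of its UMIs, and without that cell the ratio was 5.52 (1.07 to 35.6). The transcription factor Maf had ratios of 2.40, 4.05 and 1.73. Of the other genes that the rule named as higher, Timp2 (an inhibitor of matrix metalloproteinases) had ratios of 1.85, 2.62 and 2.12, Igfbp4 (which binds insulin-like growth factors) 1.85, 5.25 and 2.86, Pmp22 (a membrane protein) 1.82, 2.80 and 5.82 and Itm2b (a membrane protein) 1.69, 2.44 and 1.82. With the deepest cell left out, the intervals of Timp2 included 1 at 2 weeks, 1.90 (0.841 to 3.91), and at 12 weeks, 1.74 (0.724 to 3.94), and that of Pmp22 did at 2 weeks, 2.28 (0.995 to 4.79).

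**Figure D2:**
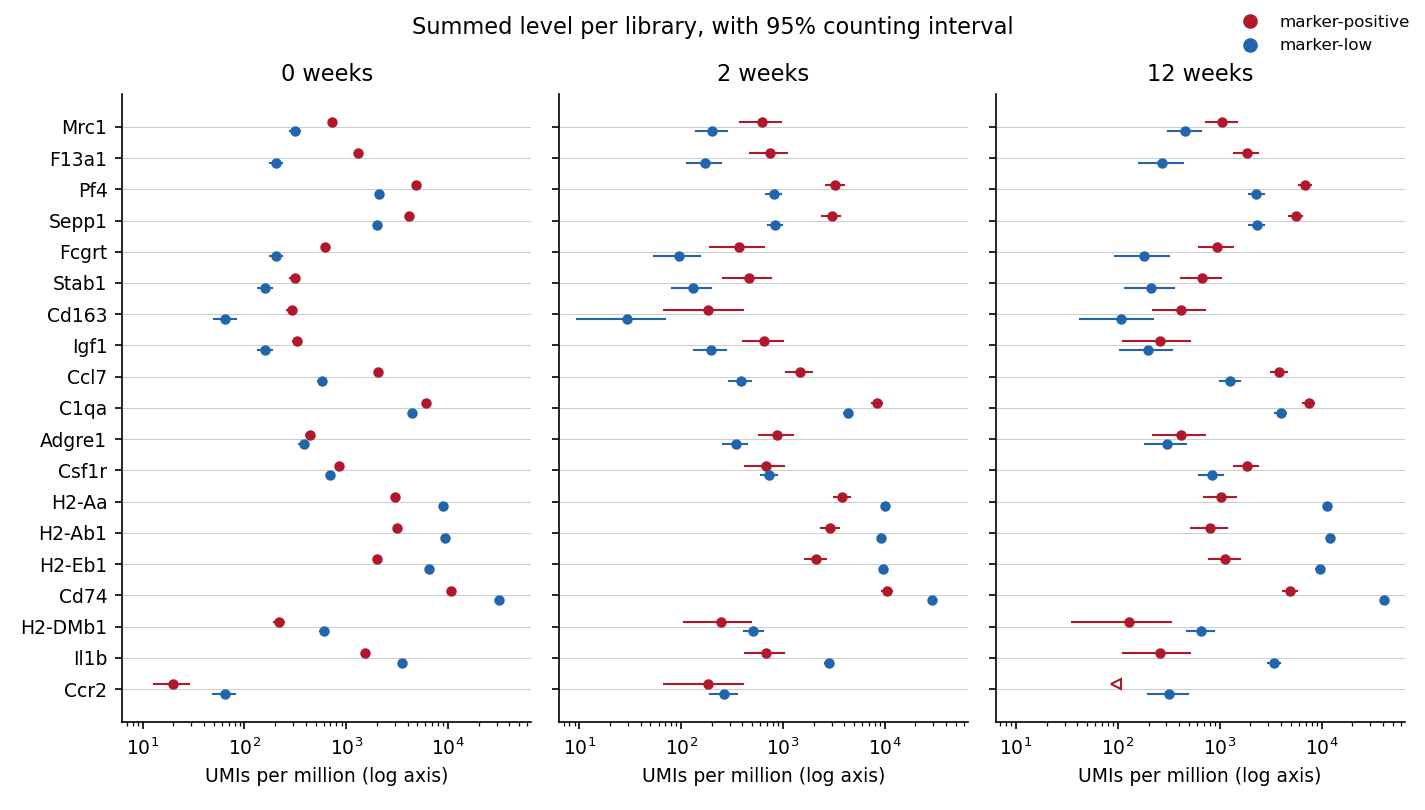
Points give CPM summed over the marker-positive (red) and marker-low (blue) macrophages of each library on a log axis, lines give exact Poisson 95% intervals, and an open triangle marks the floor of 3 counts where no UMI was seen. Resident macrophage genes sit to the right in the marker-positive cells and MHC class II genes to the left in all 3 libraries, while Ccr2 had 0 UMIs in the 12 marker-positive cells at 12 weeks.

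Genes of MHC class II were lower in the summed UMIs of the marker-positive cells of every library. H2-Aa, H2-Ab1 and H2-Eb1 encode the chains that bind peptides, Cd74 the invariant chain that guides them, and H2-DMb1 a chain of the peptide exchanger. Of the 11 genes on the list 9 could be counted in the healthy library, and 6 (these 5 and H2-Ob) were at least 2-fold lower and 0 higher, at a median log2 ratio of -1.57. Over all 7109 genes counted in that library 2.1% were lower and 5.32% higher, with a median of 0.13. In all 3 libraries at once 6 class II genes could be counted and 5 were lower in each, against 1.36% of the 660 genes counted.

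Cd74 stood at 10652, 10576 and 4949 CPM in marker-positive and 31993, 29010.4 and 41482 in marker-low cells. The ratio was 0.333 (0.327 to 0.340), 0.365 (0.326 to 0.407) and 0.119 (0.101 to 0.140). In ECs the same gene stood at 160.2, 56.2 and 161, far below the marker-positive level. H2-Aa (chr17:34282744-34287823) stood at 2992, 3835 and 1028 against 8895, 10010.1 and 11289.7. H2-Ab1 had ratios of 0.336, 0.317 and 0.0661, H2-Eb1 of 0.308, 0.219 and 0.118 and H2-DMb1 of 0.365, 0.482 and 0.197. The interval of each of these ratios lay below 1 in all 3 libraries. Without the deepest cell the whole list had a ratio of 0.444 (0.410 to 0.481) at 2 weeks and 0.152 (0.133 to 0.174) at 12 weeks, while the 2-week interval of H2-DMb1 then included 1, 0.629 (0.263 to 1.30). H2-DMa, the other chain of the exchanger, was lower by less than 2-fold, with ratios of 0.536, 0.608 and 0.541. Ciita, the master regulator of these genes, had 16, 0 and 1 UMIs in marker-positive cells, too few to compare.

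The promoters of H2-Aa and H2-Eb1 hold the same 8 letters, CTGATTGG, the Y box of class II promoters bound by NF-Y, and are shown because both genes were lower in each library. Each run gives the 150 bases before the RefSeq start in GRCm38.p6, with the Y box in capitals.
H2-Aa (chr17:34287824-34287973, minus strand): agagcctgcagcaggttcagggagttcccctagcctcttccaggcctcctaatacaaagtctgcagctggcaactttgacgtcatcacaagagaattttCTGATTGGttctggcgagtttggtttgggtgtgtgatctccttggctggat
H2-Eb1 (chr17:34305717-34305866, plus strand): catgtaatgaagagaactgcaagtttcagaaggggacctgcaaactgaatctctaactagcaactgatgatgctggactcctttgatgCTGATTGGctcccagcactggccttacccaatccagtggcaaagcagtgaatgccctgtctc

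The Y box began 51 and 62 bases before the starts of H2-Aa and H2-Eb1. In H2-Eb1 its first letters overlap a TGCTGA. Of the MHC class II list 8 genes had a promoter in the table, and 4 of them held CTGATTGG on either strand (these genes, H2-Oa and H2-Eb2), against 4.1% of all 32851 promoters, 4.7% of all 27025 genes at 1 start or more, and 0 of the 20 resident macrophage genes in the table.

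The class II level varied widely from cell to cell within the marker-positive class. In the healthy library the list took a median of 28.9 of 10000 UMIs in marker-positive cells (range 0 to 1429, 444 cells) and 592 in marker-low cells. At least 100 of 10000 UMIs were class II in 173 of 444 marker-positive cells (39.0%, 34.4 to 43.7) and in 317 of 396 marker-low cells (80.1%, 75.8 to 83.9), and 52 marker-positive cells had 0. At 2 weeks 7 of 10 marker-positive cells (70.0%, 34.8 to 93.3) and 61 of 79 marker-low cells (77.2%, 66.4 to 85.9) reached 100, so the classes were not set apart by this share, at medians of 178 and 585. At 12 weeks 2 of 12 (16.7%, 2.09 to 48.4) and 23 of 27 (85.2%, 66.3 to 95.8) did, the 2 at 643 and 564 where the third highest was 30.2. These 2 cells gave 77.6% of the class II UMIs of the 12-week marker-positive cells.

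The few cells after TAC differed among themselves. At 2 weeks the deepest marker-positive cells, with 7549 and 6006 UMIs, held class II at 1.32 and 3.33 of 10000 UMIs, and the other 8 held between 10.5 and 710.2. Their marker sums were 5 and 4 UMIs, against 2 to 12 in the other 8. The resident macrophage list lay between 100.2 and 242 of 10000 in the 10 cells. At 12 weeks the deepest cell, with 11258 UMIs, had 46 marker UMIs and the highest resident level (352 of 10000), and the next, with 6288 UMIs, had 23 marker UMIs and 161. The other 10 cells had 691 to 1825 UMIs, 2 to 9 marker UMIs and resident levels of 104 to 275. Both cells rich in class II at 12 weeks were among these 10, with 8 and 4 marker UMIs. Mitochondrial genes took 1.77% and 2.31% of the UMIs of the 2 deep cells and 7.20% to 22.7% in the other 10.

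**Figure D3:**
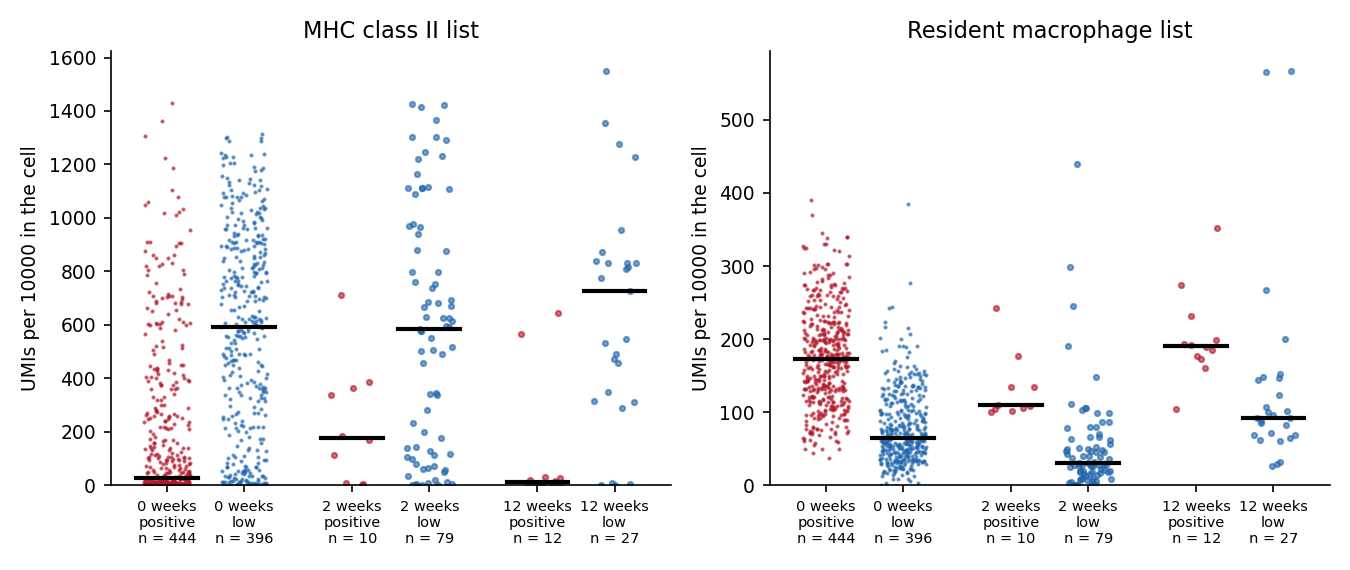
Each dot is 1 macrophage, the vertical axis gives UMIs of the gene list per 10000 UMIs of the cell, the horizontal position gives library and class (positive or low for the markers, with random sideways spread), and bars are medians. In MHC class II the healthy medians are 28.9 and 592 and the marker-positive cells span 0 to 1429, while at 12 weeks 10 of 12 marker-positive cells lie at 30.2 or below.

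Healthy macrophages, the only ones numerous enough, were divided by marker UMIs, and the levels differed with the number of marker UMIs in a cell. From a sum of 0 through 1, 2, 3 to 4, 5 to 9 and 10 or more (296, 100, 56, 126, 141 and 121 cells), the MHC class II list stood at 59537, 54313, 31461, 35677, 18794 and 5268 CPM. The resident macrophage list, which shares no gene with the sum, stood at 7004, 9955, 12681, 14227, 17199.8 and 22139. The resident list was higher at each step, and class II was lower at each step but the one from 2 to 3 to 4. F13a1 went from 144 at a sum of 0 through 736 at a sum of 2 to 1868 at 10 or more. Il1b, the inflammatory cytokine, went from 3723 to 767. The pan-macrophage list, of genes that macrophages share, ranged only from 28264 to 34797. The median depth was 2378 UMIs at a sum of 0, 2049.5 at 2 and 3833 at 10 or more, and its part in these steps was not tested. Just below and just above the threshold F13a1 stood at 365 and 736.

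**Figure D4:**
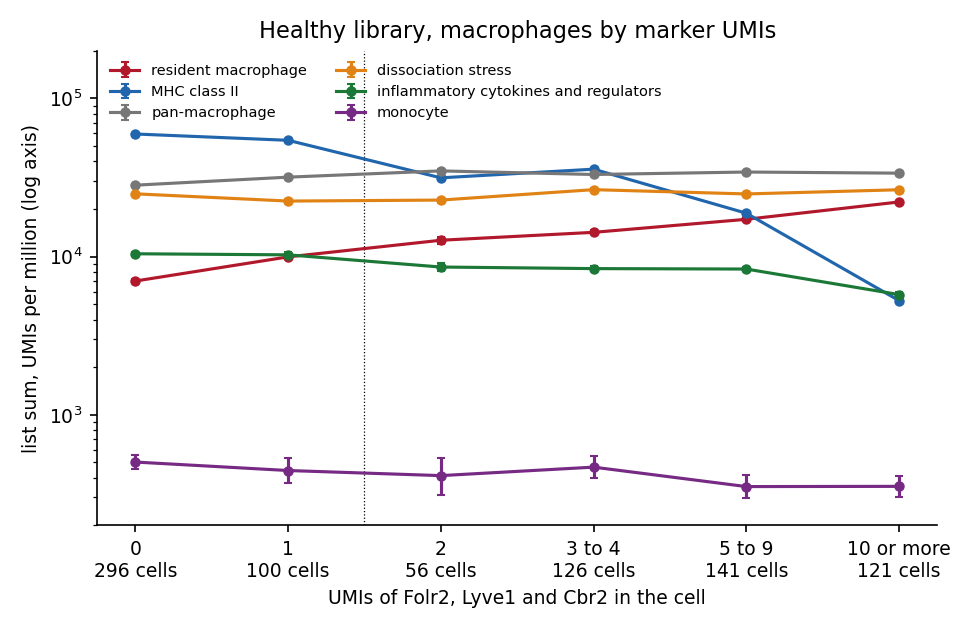
Points give the summed level of 6 gene lists in healthy macrophages on a log axis, by the number of Folr2, Lyve1 and Cbr2 UMIs in the cell, with exact Poisson 95% intervals, and the dotted line marks the threshold of 2. MHC class II declines from 59537 to 5268 and the resident macrophage list climbs from 7004 to 22139, while the pan-macrophage and dissociation stress lists stay nearly level.

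Marker-positive cells were not uniform in the other resident genes. In the healthy library 111 of 444 (25.0%) held a UMI of Timd4, against 0.251% of ECs and 0.394% of FBs. In those 111 cells (median 3370 UMIs) F13a1 stood at 1551 CPM, against 1192 in the 333 cells without (median 2786 UMIs). Ccl8 stood at 269 against 66.5 and the class II list at 14703 against 21208. A UMI of Ccl8, a chemokine, was seen in a small set of 29 cells. There F13a1 stood at 1705 CPM against 1256 in the other 415, and class II at 5823 against 20575. The 32 cells with a UMI of the cell-cycle genes Mki67 or Top2a had less F13a1, 889.9 against 1334, and less class II, 6976 against 20738. Cells were split by detection of 1 gene, or of either of the 2 cell-cycle genes, which also favours deeper cells, and these values carry no test. Shares in ECs and FBs are not given for Ccl8, Mki67 or Top2a, so a UMI of these marks detection alone.

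The summed list of 17 monocyte genes stood at 386, 680.3 and 386 CPM at 0, 2 and 12 weeks in marker-positive and 487, 1704 and 1732 in marker-low cells, and 254 of 444 and 232 of 396 healthy cells held a UMI of it. The ratios between the classes were 0.794 (0.701 to 0.899), 0.399 (0.246 to 0.616) and 0.223 (0.112 to 0.404). In marker-positive cells the 2-week level was 1.76 (1.09 to 2.69) times the healthy one, and 1.46 (0.794 to 2.47) without the deepest cell, an interval that included 1. In marker-low cells it was 3.50 (3.02 to 4.05) times. Ccr2 had 27, 6 and 0 UMIs in marker-positive and 66, 45 and 21 in marker-low cells. In the healthy library that was 19.7 against 64.2 CPM, a ratio of 0.306 (0.188 to 0.486), while at 2 weeks the ratio of 0.699 (0.244 to 1.65) did not set the classes apart. The list of 12 dendritic cell genes stood at 28.4, 30.9 and 64.3 CPM in marker-positive and 117, 129.7 and 60.8 in marker-low cells, a healthy ratio of 0.243 (0.165 to 0.352). Of its genes 3 could be counted in the healthy library, 0 were 2-fold higher and 1 (Cd209a) lower in marker-positive cells. Cd209a, a lectin of monocyte-derived dendritic cells, had 0 UMIs in the 444 healthy marker-positive cells and 69 in the 396 marker-low ones. Of the 17 monocyte genes 6 could be counted in the healthy library, 3 (Ccr2, Thbs1 and Ms4a4c) were 2-fold lower in marker-positive cells and 1 (Ifitm6) was higher, against 2.1% of all genes counted there lower and 5.32% higher.

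Chemokines divided between the classes. Of 18 chemokine genes 14 could be counted in the healthy library, 5 (Ccl2, Ccl6, Ccl7, Ccl8 and Ccl9) were at least 2-fold higher in marker-positive cells and 3 (Cxcl3, Cxcl16 and Ccl17) lower, where 5.32% of all genes were higher and 2.1% lower. Ccl7, which attracts monocytes, stood at 2036, 1453 and 3856 CPM in marker-positive and 574, 383 and 1261 in marker-low cells with ratios of 3.55, 3.79 and 3.06. Its 12-week ratio was 1.76 (1.19 to 2.56) without the deepest cell, which held 63.3% of the UMIs, and at 1000 UMIs a cell its 2-week log2 ratio turned to -0.96, from 1 UMI in the 4 marker-positive cells left. Ccl2, the main ligand of CCR2, had ratios of 2.31, 4.05 and 1.50, the last 1.29 (0.989 to 1.67) without the deepest cell. Ccl6 had a ratio of 2.93 in the healthy library but 0.818 at 2 weeks. Il1b went the other way, at 1518, 680.3 and 257 in marker-positive and 3557, 2818 and 3388 in marker-low cells, with ratios of 0.427, 0.241 and 0.0759. Of 18 inflammatory genes, all counted in the healthy library, Il1b and Clec4e were 2-fold lower and 0 higher, beside the same shares over all genes.

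Among other functional lists, which are read against the 5.32% of genes higher and 2.1% lower over the healthy library, of 14 iron and haem genes counted in the healthy library 4 were higher: Slc40a1 (the iron exporter ferroportin), Cd163, Blvrb (biliverdin reductase B) and Tfrc (the transferrin receptor), and 0 lower. Slc40a1 had a healthy ratio of 5.31 (2.81 to 11.1). Of 9 complement genes 3 were higher, among them Cfp (properdin) and C4b. Cfp stood at 272 against 85.7 CPM. Of 17 genes of lipid-associated macrophages 0 were 2-fold higher and 3 lower, while the summed list was higher in marker-positive cells, with ratios of 1.45 (1.42 to 1.47), 1.49 (1.39 to 1.59) and 1.84 (1.68 to 2.02). The lower genes were Spp1 (osteopontin) at a ratio of 0.118 (0.0562 to 0.224), Cd9 at 0.332 (0.276 to 0.397) and Lgals3 at 0.443. Of 14 proliferation genes 5 (Ccnb2, Tyms, Mcm6, Stmn1 and Cdca8) were higher and 0 lower, with Mki67 at 1.60 (1.01 to 2.58). None of the 18 general macrophage genes, 21 lysosome genes or 20 dissociation stress genes counted differed by 2-fold, and Csf1r and Adgre1 (F4/80), which mark macrophages at large, had healthy ratios of 1.24 and 1.15.

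The rule for genes lower in every library named, beside class II and Il1b, Tnip3 (an inhibitor of NF-kB signalling), Slamf7 (an immune cell surface receptor), Plbd1 (a phospholipase B-like protein), Tgfbr1 (a receptor of TGF-beta), Slc15a3 (a lysosomal peptide transporter) and Axl (a TAM receptor). Tnip3 had 78, 1 and 0 UMIs in marker-positive and 234, 94 and 46 in marker-low cells. In the healthy library the ratios were 0.250 for Tnip3, 0.268 for Slamf7, 0.349 for Plbd1, 0.359 for Tgfbr1, 0.425 for Slc15a3 and 0.478 for Axl. At 2 and 12 weeks these 6 genes had at most 5 UMIs in marker-positive cells and passed the minimum through the marker-low cells, so being low there is no result.

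The comparison of phases asked whether these cells differed between the healthy, hypertrophic and failing heart, and it rested on 10 and 12 cells after TAC. Of the 5707 genes with at least 20 UMIs over both times, 14.8% were 2-fold higher and 33.2% lower at 2 weeks, and of 5718 genes 15.6% were higher and 32.4% lower at 12 weeks. A gene with 20 UMIs in all can be at 0 in the smaller group by counting alone. Among genes for which at least 10 UMIs would be awaited in the smaller group, a filter added after the data were seen, 23 of 448 (5.13%) were higher and 38 (8.48%) lower at 2 weeks, and 10 of 425 (2.35%) were higher and 26 (6.12%) lower at 12 weeks. The lists below are counted under that filter.

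At 2 weeks the marker-positive cells carried more of several immediate-early genes and of Hspa1b, and less of some resident genes. Of 19 dissociation stress genes 6 (Fos, Hspa1b, Dusp1, Ier2, Ier3 and Zfp36) were at least 2-fold higher and 0 lower. The cell-cycle inhibitor Cdkn1a (p21) stood at 919, 4700.5 and 578 CPM at 0, 2 and 12 weeks and the phosphatase gene Dusp1 at 809, 3649 and 1575. The 2-week level over the healthy one was 5.11 (4.29 to 6.05) for Cdkn1a and 4.51 (3.70 to 5.46) for Dusp1, but 1 cell gave 63.8% and 55.9% of the 2-week UMIs. Without the deepest cell the ratios were 2.41 and 2.59. In marker-low cells they were 1.58 (1.38 to 1.80) and 1.35 (1.16 to 1.57). The summed stress list had a 2-week ratio of 1.41 (1.33 to 1.50) in marker-positive cells, 1.34 without the deepest cell, and 0.777 (0.748 to 0.806) in marker-low cells. This difference between the classes was not tested. The stress list is also induced by tissue digestion, and its part in the 2-week library was not tested.

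Hspa1b, a heat shock protein gene, stood at 633, 1855 and 418 CPM at 0, 2 and 12 weeks. It was higher at 2 weeks by a ratio of 2.93 (2.22 to 3.81), and 3.83 without the deepest cell. Of other chaperone genes, picked after their values were seen, Hspe1 had a ratio of 0.379 (0.139 to 0.830), Hsp90b1 of 0.375 (0.150 to 0.777) and Dnaja1 of 0.589 (0.387 to 0.860). Leaving out the deepest cell gave 0.412 (0.133 to 0.967), 0.490 (0.196 to 1.01) and 0.712 (0.459 to 1.05), and the last pair of intervals then included 1. These picked genes do not stand for chaperone genes as a group. Ms4a7, a macrophage membrane gene, stood at 549.7, 2350.2 and 578 and had a 2-week ratio of 4.28 (3.33 to 5.42), and 3.52 without that cell. Cd52, a surface antigen of leukocytes, stood at 562, 1917 and 418 and had a ratio of 3.41 (2.59 to 4.42). By contrast Lgals3 (galectin-3) stood at 179, 1144 and 225, and its ratio of 6.38 (4.39 to 9.04) came to 1.12 without the deepest cell, which held 86.5% of its UMIs. Pim1, Sqstm1, Ier3 and Fos, the other genes named as higher, had ratios of 2.88, 2.45, 3.33 and 2.40, and 2.23, 1.89, 2.04 and 2.02 without the deepest cell. At 1000 UMIs a cell 4 marker-positive cells of the 2-week library were left, and they held 0 UMIs of Sqstm1.

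Of 14 resident macrophage genes counted at 2 weeks, 4 (among them Ltc4s, Ccl24 and Mgl2) were 2-fold lower than in the healthy library and 0 higher. Their log2 ratios had a median of -0.66. The list stood at 17774, 11999 and 24068 CPM at 0, 2 and 12 weeks, a 2-week ratio of 0.675 (0.609 to 0.746) and 0.695 without the deepest cell. In marker-low cells the 2-week ratio of the list was 0.846 (0.794 to 0.900). The marker-positive cells had a median of 3.5 marker UMIs at 2 weeks and 5 at 0 weeks. Healthy macrophages with fewer marker UMIs had a lower level of this list, and the part of this in the 2-week ratio was not tested. Mgl2, a lectin of macrophages and dendritic cells, stood at 714, 155 and 1221 and had a 2-week ratio of 0.217 (0.0702 to 0.507) in marker-positive and 0.327 (0.217 to 0.475) in marker-low cells. Ccl24 had a ratio of 0.101 (0.0122 to 0.365) from 2 UMIs. Pf4 and Sepp1 had ratios of 0.676 (0.552 to 0.819) and 0.733 (0.594 to 0.896), and without the deepest cell 0.848 (0.690 to 1.03), an interval that included 1, and 0.533 (0.400 to 0.696). The metallothionein genes Mt1 and Mt2 had ratios of 0.215 (0.138 to 0.321) and 0.120 (0.0145 to 0.436). The 10 genes named as lower at 2 weeks, Retnla, Fxyd2, Nktr, Hbegf, Tmem37, Mgp, Prdx4, Nrp2, Ubxn4 and Atp5g3, all had 0 UMIs there. They were the most extreme among genes that passed the minimum through the healthy library, so neither their number nor their level there is a result.

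At 12 weeks the level of MHC class II genes in the marker-positive cells was below that of the healthy library when UMIs were summed over cells. Of 5 class II genes counted 3 (H2-Aa, H2-Ab1 and Cd74) were 2-fold lower and 0 higher. The class II list stood at 19407, 20163 and 8451 CPM at 0, 2 and 12 weeks in marker-positive cells and 58128, 59141 and 75837 in marker-low cells. The 12-week ratio was 0.435 (0.384 to 0.492) in the former and 1.30 (1.27 to 1.34) in the latter. Without the deepest cell, which stood at 30.2 per 10000, the marker-positive ratio was 0.594, and as a mean over cells it was 0.560. At 2 weeks the marker-positive ratio to the healthy level was 1.04 (0.960 to 1.12), and 1.35 (1.25 to 1.46) without the deepest cell. As a mean over cells the 2-week ratio was 1.15. These intervals count UMIs and not cells. By cells, 2 of 12 at 12 weeks and 173 of 444 at 0 weeks were at or above 100 per 10000, with the intervals given above overlapping.

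Il1b stood at 1518, 680.3 and 257 CPM at 0, 2 and 12 weeks, the last from 8 UMIs in 4 cells. Its 12-week ratio was 0.169 (0.0730 to 0.334) in marker-positive and 0.953 (0.829 to 1.09) in marker-low cells. In marker-positive cells it was 0.232 (0.0932 to 0.479) without the deepest cell and 0.253 as a mean over cells. Thinned to equal depth, Il1b had 6 UMIs in 10 marker-positive cells at 12 weeks and 346 in 284 at 0 weeks. That was a smaller difference than in the summed UMIs. Of 5 inflammatory genes counted 3 (Il1b, Nfkb1 and Cd83) were 2-fold lower and 0 higher, and Nfkb1 had a ratio of 0.478 (0.175 to 1.05), whose interval included 1. Of 9 chemokines counted 4 (Ccl3, Ccl4, Ccl12 and Cxcl1) were 2-fold lower and 0 higher. The summed chemokine list had a 12-week ratio of 0.995 (0.909 to 1.09) and 1.07 as a mean over cells, but 0.878 (0.778 to 0.987) without the deepest cell. Ccl6 and Ccl7 were above their healthy level, with ratios of 1.83 (1.35 to 2.43) and 1.89 (1.56 to 2.27), and 2.24 (1.59 to 3.08) and 1.09 (0.789 to 1.46) without the deepest cell. Cxcl1 rested on 3 UMIs, and its interval included 1 without that cell, 0.423 (0.0869 to 1.24). Ccl3 had a ratio of 0.426 (0.204 to 0.786), and 0.707 as a mean over cells. Ccl12 had a ratio of 0.331 (0.143 to 0.655) from 8 UMIs in 3 cells, and 0.437 as a mean over cells. Thinned to equal depth, its counts were less than 2-fold lower. Ccl4, an inflammatory chemokine, stood at 1478, 2103 and 578 in marker-positive and 1826, 2010.3 and 7339 in marker-low cells. Its 12-week ratio was 0.391 (0.231 to 0.620) in marker-positive cells, 0.579 without the deepest cell and 1.01 as a mean over cells, so by cell it was not lower. Cd83, an activation marker, had a ratio of 0.414 (0.291 to 0.572), and 0.403 without that cell.

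The summed resident macrophage list was not lower at 12 weeks. Of its 13 genes counted 0 were 2-fold higher or lower, at a median log2 ratio of 0.50. The list stood at a ratio of 1.35 (1.26 to 1.46), 1.00 without the deepest cell, and 1.52 (1.41 to 1.63) in marker-low cells. Without that deepest cell Pf4 went from 1.44 to 0.754 (0.589 to 0.951). Ccl24 went from 1.21 to 0.411 (0.133 to 0.962), past 2-fold lower, so the count of 0 did not hold there. Mrc1 went from 1.46 to 1.25 (0.739 to 1.99). Csf1r, the receptor for the macrophage growth factor CSF1, stood at 859, 680.3 and 1832 CPM and had a 12-week ratio of 2.13 (1.60 to 2.78), and 2.35 without the deepest cell. Fcgr2b, the inhibitory IgG receptor, had a ratio of 2.32. In marker-low cells Csf1r had 1.20 (0.898 to 1.58).

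All 10 genes named as higher at 12 weeks were higher in marker-low cells of that library too, by ratios of 1.98 (Serinc3) to 27.5 (Gm10116). Gm10116 stood at 84.6, 124 and 1799 CPM in marker-positive and 61.3, 141 and 1687 in marker-low cells, and at 13.1 and 259 in ECs at 0 and 12 weeks. AY036118 and Gm42418 overlap on opposite strands of chromosome 17, so where they overlap only strand tells them apart. Their 12-week ratios were 8.26 (6.54 to 10.3) and 3.69 (2.92 to 4.62) in marker-positive cells. They had 9.56 (8.01 to 11.4) and 3.07 (2.57 to 3.66) in marker-low cells. Gm10076, Gm10073 and Gm9843, with Serinc3, Ier3 and Ier5, were also named, at ratios of 9.31, 5.49, 3.35, 2.69, 2.86 and 2.15. The 10 genes named as lower at 12 weeks, Clec4a2, Slc15a3, Snx6, St3gal6, Basp1, Lrrfip1, Nmt1, Dnajb6, Mrpl42 and Grb2, all had 0 UMIs there. They were the most extreme among genes that passed the minimum through the healthy library, so neither their number nor their level there is a result.

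**Figure D5:**
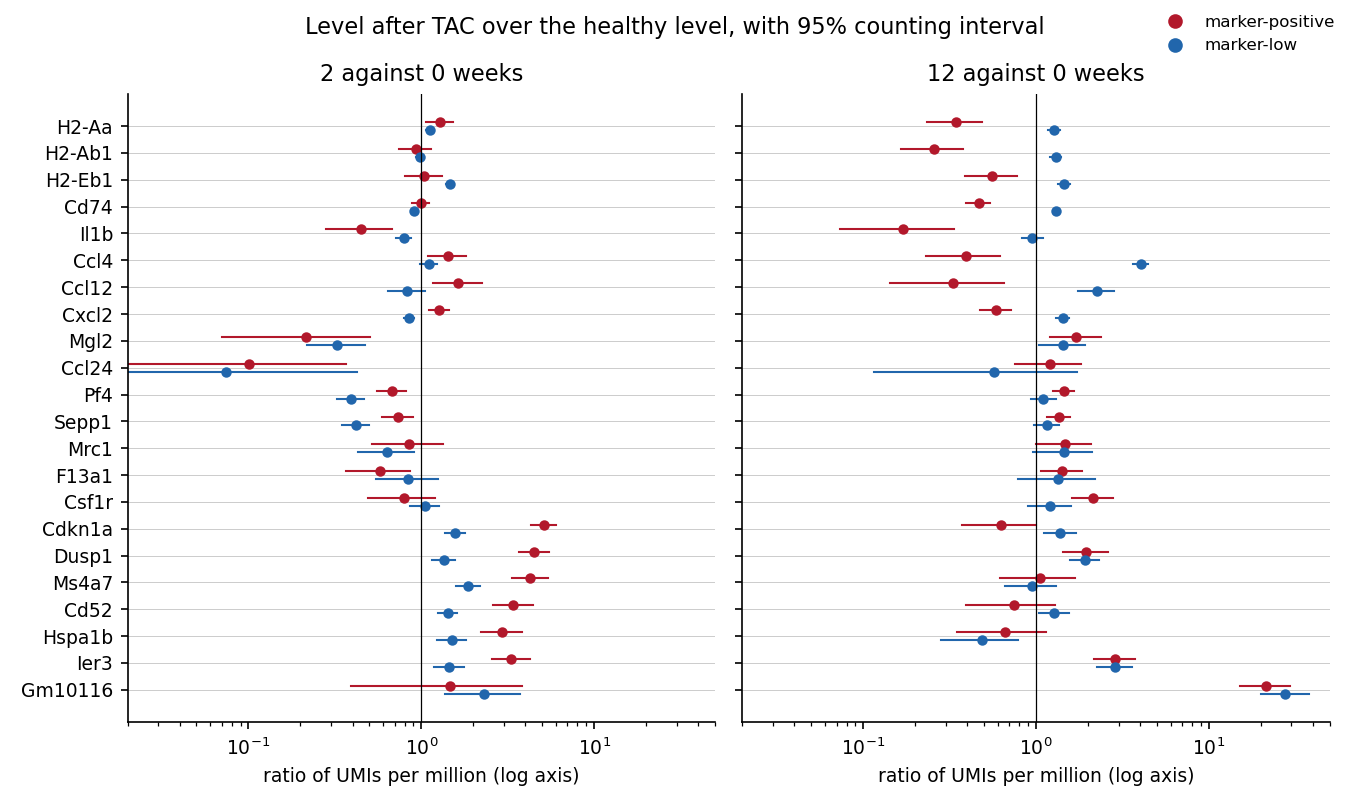
Points give the level at 2 or 12 weeks of TAC divided by the level at 0 weeks on a log axis, for marker-positive (red) and marker-low (blue) macrophages, with conditional binomial 95% intervals, cut at 0.02 on the left. At 12 weeks Cd74, H2-Aa and H2-Ab1 lie left of 1 in marker-positive and right of 1 in marker-low cells (Cd74 0.465 against 1.30), and Gm10116 lies right of 1 in both classes.

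Between the 2 times after TAC, the 12-week level was 7.90 (3.10 to 25.7) times the 2-week level for Mgl2, 5.71 (3.68 to 9.24) times for Mt1, 4.33 (2.27 to 8.93) times for Ccl6 and 3.79 (2.29 to 6.57) times for Crip1 (a LIM domain protein), all higher at 12 weeks. It was 0.123 (0.0710 to 0.201) for Cdkn1a, 0.156 (0.0540 to 0.370) for Bcl2a1b (a survival gene with near-identical copies), 0.218 (0.110 to 0.400) for Cd52 and 0.276 (0.170 to 0.433) for H2-Ab1, all lower. Without the deepest cell of each time the ratios were 2.50 (0.777 to 9.31) for Mgl2, 4.20 for Mt1, 4.42 for Ccl6, 3.82 for Crip1, 0.182 (0.0747 to 0.383) for Cdkn1a, 0.169 for Bcl2a1b, 0.221 for Cd52 and 0.295 for H2-Ab1, so the Mgl2 interval then included 1. At 1000 UMIs a cell the log2 ratio of Bcl2a1b turned to 0.26. The resident macrophage list had a ratio of 2.01 (1.77 to 2.27), 1.44 without those cells, and the MHC class II list of 0.419 (0.362 to 0.484). These compare 12 cells with 10.

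Transcripts of other cell types were present at low levels in the marker-positive cells and differed between libraries. Fibroblast genes stood at 1123, 247 and 1317 CPM at 0, 2 and 12 weeks, endothelial genes at 132, 92.8 and 321 and mural genes at 141, 0 and 129. Lymphatic endothelial genes, which bear on Lyve1, stood at 15.3, 0 and 32.1. Neutrophil genes stood at 37.9, 0 and 611, and the 12-week value of that list rested on 19 UMIs, 16 of them in the deepest cell. Erythroid and platelet genes stood at 21.1, 0 and 193. Their 12-week ratio to the healthy level was 9.12 (3.10 to 22.4) from 6 UMIs, 7.14 without the deepest cell, and 9.93 (4.70 to 20.3) in marker-low cells. No list of another cell type had more than 1 gene 2-fold higher in healthy marker-positive than in marker-low cells (Postn among fibroblast genes and Mmp9 among neutrophil genes). The part of these transcripts in the phase differences was not tested.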

How the data were processed

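Per the labels, non-cardiomyocytes were loaded on the 10x Chromium 3' v2 system, and the submitters' processing notes name Cell Ranger 2.0.0 and mm10. The deposited matrices hold raw UMI counts per gene and cell for 27998 genes in 3 libraries, 1 per phase. Counts were summed over the cells of a class in each library and given as CPM. A ratio is the quotient of 2 such levels. Shares carry exact Clopper-Pearson, levels exact Poisson and ratios conditional binomial 95% intervals. UMIs remove PCR copies, so the intervals cover counting of molecules, not differences between mice or between cells. With 1 library per phase no test was run.

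Genes counted had at least 20 UMIs over the 2 groups compared, and 2-fold was judged on log2 ratios with 1 CPM added. Between classes the 12 genes in each direction with the most extreme smallest log2 ratio over the 3 libraries were named. Such genes had at least 10 UMIs in the higher class of each library, and at least 100 CPM in that class over the libraries pooled. Between phases the 10 most extreme in each direction were named (at least 30 UMIs and 100 CPM in the higher phase). Mitochondrial, ribosomal and haemoglobin genes and the 16 genes of the selection rule were left out. ECs and FBs, used as reference, were chosen from their marker sets in the same way, with at least 5 UMIs. Gene positions come from GENCODE M21 on GRCm38 (mm10) and promoters from RefSeq. The members, the 29 gene lists and the alternatives were chosen with earlier results of these data known. The filter on awaited UMIs, the healthy library alone and the removal of the deepest cell were added after seeing the data. Some genes that the rules would name are not reported here. The scripts were tested on simulated counts. Python 3.11.15, numpy 2.4.6, scipy 1.17.1, pandas 2.3.3, scanpy 1.11.5 (Scrublet) and matplotlib 3.10.9 were used.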

Additional observations from a re-analysis of the deposited data

Results flagged for a closer look

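For 3 of the named genes the ratio to the healthy library, with UMIs summed over all cells, was at most 0.5 in marker-positive and at least 2 in marker-low macrophages. The difference between the classes was not tested. Retnla, a secreted resistin-like protein, had 0 UMIs in the 10 marker-positive cells at 2 weeks (a ratio of 0 to the healthy level) and a ratio of 8.64 in marker-low cells. It was named for being at 0 there, so its marker-positive ratio is a description and no result. Ccl12, a monocyte-attracting chemokine, had a 12-week ratio of 0.331 (0.143 to 0.655) in marker-positive and 2.24 in marker-low cells. The first rested on 8 UMIs in 3 cells, with 62.5% of them in the top cell. It came to 0.389 (0.142 to 0.850) without the deepest cell and 0.437 as a mean over cells. Thinned to equal depth, Ccl12 had 5 UMIs in 10 marker-positive cells at 12 weeks and 204 in 284 at 0 weeks. By these thinned counts it was less than 2-fold lower. Ccl4 had a 12-week ratio of 0.391 in marker-positive and 4.02 in marker-low cells, and the first came to 1.01 as a mean over cells.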

How the results depend on the processing

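The phases could not be paired because each had 1 library. Every library held both classes, but no analysis paired by library was run. The classes were set from UMIs of the same cells, and their comparison carries no test. The healthy marker-positive share of 52.9% was 46.2% with at least 3 marker UMIs and 33.8% at 1000 UMIs a cell. The 2-week share of 11.2% was 5.41% at 1000 UMIs, and the 2-week macrophage share of 3.99% was 3.09% with at least 10 C1q UMIs. Genes 2-fold higher in marker-positive cells of every library (6) numbered 1 at 1000 UMIs, 3 without the deepest cell at 2 and 12 weeks, 3 with at least 10 UMIs awaited, 68 with no minimum of UMIs, and 378 in the healthy library alone. Genes lower (9) numbered 104 with no minimum and 149 in the healthy library alone. At 2 weeks against 0, the 846 genes higher and 1896 lower became 422 and 994 at 1000 UMIs, 1866 and 6436 with no minimum, and 23 and 38 with at least 10 UMIs awaited. At 12 weeks against 0, the 890 higher and 1851 lower became 300 and 577, 1971 and 6350, and 10 and 26 under the same settings. At 1000 UMIs 5 log2 ratios changed sign: Ccl7 between classes at 2 weeks (-0.96), Sqstm1 at 2 against 0 weeks (-8.52), and Bcl2a1b (0.26), Ccl12 (8.97) and Ccl4 (1.67) at 12 against 2 weeks. In the 4 marker-positive cells left at 2 weeks Sqstm1 and Ccl12 had 0 UMIs, so their sizes are set by the 1 CPM added and are no measured ratio, and Ccl7, Bcl2a1b and Ccl4 had 1 UMI each. The cause of these shifts was not tested, except that settings with fewer UMIs or no minimum change how many genes are counted. Over the named genes, 1135 ratios under the alternatives stayed within the main interval, 120 left it with the same sign and 5 changed sign.

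With 10 and 12 marker-positive cells after TAC, low genes such as Timd4, Vsig4 and Ciita were not measurable at this depth, and a single cell held up to 36.2% of the UMIs.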

Other observations

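Some cells had at least 2 UMIs of Folr2, Lyve1 and Cbr2 but were not macrophages by the rule: 37 of 481 such cells at 0 weeks, 7 of 17 at 2 weeks and 6 of 18 at 12 weeks. Of these, 33, 7 and 6 had fewer than 5 C1q UMIs, and 18, 3 and 1 had at least 2 UMIs of lymphatic endothelial genes, a cell type that also carries Lyve1. In the healthy library the 231 marker-positive cells with a UMI of Ccl24 had the class II list at 12140.0 and Il1b at 980.0 CPM, against 27992 and 2153 in the 213 without, with median depths of 3024 and 2791 UMIs.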
